A study of Mus musculus with 20 samples.

Results

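The genes described here are 50 genes of the Wnt pathway, taken by gene name from the 54532 genes of the raw count table. They comprise 12 ligands, 2 genes of ligand secretion, 10 receptors, 6 R-spondins and their receptors, 5 secreted inhibitors, 7 transducers, 3 nuclear factors and 5 feedback targets. The libraries came from mice of 3 genotypes, all labelled C57BL/6. WT mice carried unaltered Ager, the gene of the receptor RAGE. Ager AHA/AHA mice carried a CRISPR knock-in of point mutations in Ager in the heparan sulfate-binding site of RAGE. Ager-/- mice were a constitutive knockout of Ager. Perfused whole lung was sequenced from 3 WT, 4 Ager AHA/AHA and 4 Ager-/- mice, with no treatment in the labels. Neutrophils (PMN, labelled above 95% pure) came from 3 mice of each genotype. They were washed out of a dorsal air pouch 4 h after 1 ug of LPS was injected on day 7, so every neutrophil library was LPS-exposed. The sources used here give neither age nor sex of the sequenced mice. The labels name no individual animals, so p-values measure the spread between these libraries.

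Wnt proteins are lipid-modified secreted ligands that Porcn acylates and Wls carries to the cell surface. They bind Frizzled receptors with the co-receptors Lrp5 and Lrp6, which stops a cytoplasmic complex of Axin, Apc and Gsk3b from marking beta-catenin (Ctnnb1) for destruction, and beta-catenin then acts in the nucleus with Lef1 and the Tcf factors. Secreted antagonists of the Sfrp, Dkk and Wif families act on ligands or co-receptors, R-spondins act through Lgr receptors to keep Frizzled at the surface, and Axin2, Nkd1, Notum, Rnf43 and Znrf3 are induced by the pathway and restrain it. In the mouse lung, mesenchymal Wnt2 and Wnt2b specify the organ in the embryo, and in the adult, Wnt ligands from fibroblasts signal to alveolar type 2 cells.

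Assigned counts ranged from 16764589 to 24818703 per lung library and from 17109497 to 23522678 per neutrophil library. Ager was at 1612 to 2910 CPM (counts per 1000000, scaled by TMM within each tissue) in WT and Ager AHA/AHA lung and at 25.4 to 29.8 CPM in Ager-/- lung. In neutrophils it was low and not reduced in the knockout, at 0.891 to 2.395 CPM in WT and Ager AHA/AHA and 2.61 to 3.78 CPM in Ager-/-. A list of 10 neutrophil markers summed to 20610 to 34370 CPM in the neutrophil libraries and to 45.3 to 363.2 CPM in lung. The constant that relates the deposited FPKM values to the counts split the libraries into a set of 12 and a set of 8, and WT replicate 3, Ager AHA/AHA replicates 3 and 4 and Ager-/- replicates 4 and 5 were the lung libraries of the smaller set. WT lung replicate 1 stood apart in mesothelial genes. Its Msln was at 481.9 CPM against 116.2 to 277.1 CPM in the other lung libraries.

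Levels were compared between genes as TPM (transcripts per 1000000, the deposited FPKM rescaled to the same sum in each library), which corrects for transcript length. In WT lung, Ctnnb1 was the most abundant of the 50 genes, at 184.1 to 197.9 TPM. The next were the feedback target Nkd1 (37.8 to 47.2 TPM), the ligand carrier Wls (36.5 to 45.2 TPM), the R-spondin Rspo1 (29.8 to 64.7 TPM) and the divergent Dickkopf protein Dkk3 (22.5 to 33.0 TPM), whose ranges overlapped each other in part. Among ligands, Wnt10b was highest at a median of 14.6 TPM, followed by Wnt11 at 13.1 TPM, Wnt3a at 12.6 TPM and Wnt2 at 10.98 TPM, and the WT ranges of these ligands overlapped except those of Wnt2 with Wnt11 and Wnt3a. Among receptors Fzd4 led at a median of 25.8 TPM, among nuclear factors Tcf7l1 at 6.28 TPM. At the low end, Wnt10a, Lgr5, Rspo2 and Dkk2 had medians of 0 to 0.266 TPM. Wnt10a and Rspo2 had too few counts to be tested in lung, which left 48 genes.

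**Figure D1:**
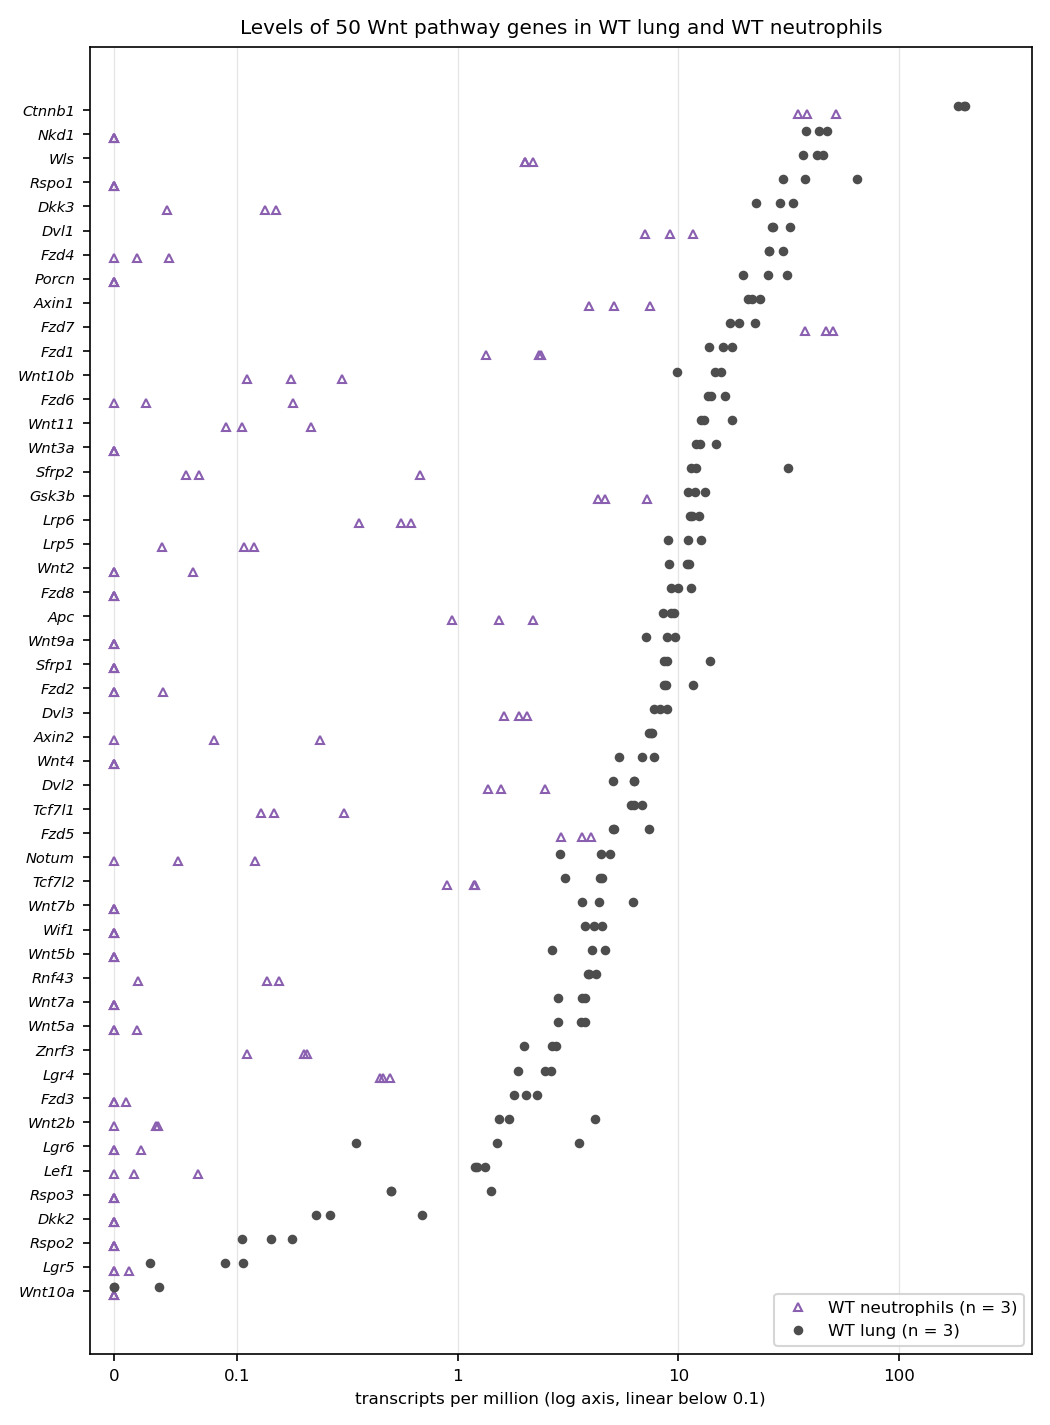
Level of each of the 50 genes in the 3 WT lung libraries (circles) and the 3 WT neutrophil libraries (triangles), in TPM on an axis that is logarithmic above 0.1, with genes ordered by their median in WT lung. Most genes lie far to the left in neutrophils, while Fzd7 is at 37.6 to 50.1 in neutrophils against 17.2 to 22.2 in lung.

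Spread between lung libraries of the same genotype differed among the genes. The pooled coefficient of variation of CPM within genotypes had a median of 17.45% over the 48 genes, from 7.17% for the transducer Dvl2 to 76.1% for the R-spondin receptor Lgr6. Lgr6 counts ran from 31 to 343 over the 11 lung libraries, without order by genotype. Sfrp2 at 53.8% and the R-spondin Rspo3 at 48.1% were also variable, and WT lung replicate 1 was the highest lung library for both.

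The comparison of Ager-/- with WT lung asked which of the genes differ when RAGE is absent. 6 genes were downregulated and 1 was upregulated of 48 tested (adjusted p under 0.05 with edgeR's quasi-likelihood test and Benjamini-Hochberg adjustment over 17458 genes). The downregulated genes were the ligands Wnt10b and Wnt2, the inhibitors Sfrp2 and Dkk3, the nuclear factor Lef1 and the feedback target Axin2, and the upregulated gene was the ligand Wnt7a. They make 14.6% of the genes tested, where 3.1% of all genes were called (1.64% lower, 1.45% higher). The genes were chosen with earlier results of these data known, and the study had listed Wnt10b, Sfrp2 and Wnt7a from these lungs. The share is therefore no independent evidence about the pathway. The median log2 fold change of the 48 genes was 0.04 against 0.01 over all genes. At an unadjusted p under 0.05 there were 18 genes, where 16.3% of all genes passed. The libraries of both genotypes did not overlap for 15 of the 48 genes, 7 lower and 8 higher in Ager-/-, where 15.8% of all genes did not overlap (8% lower, 7.84% higher).

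Wnt10b (ENSMUSG00000022996, chr15:98770712-98778150, minus strand, mm10), a ligand known for promoting bone formation and blocking fat cell differentiation, changed most. The WT lungs held 27.4, 22.8 and 28.0 CPM, the Ager AHA/AHA lungs 24.1, 28.65, 36.1 and 30.1 CPM, and the Ager-/- lungs 3.13, 3.78, 4.75 and 4.85 CPM. Every Ager-/- library lay far below every WT and Ager AHA/AHA library, which overlapped each other. The estimate for Ager-/- against WT was -2.65 on the log2 scale (SE 0.169, adjusted p = 1.72e-07), or a 6.29-fold lower level. Wnt2 (chr6:17988940-18030585), the mesenchymal ligand of lung development, had 13.65, 14.0 and 13.4 CPM in the WT lungs, 14.4, 11.7, 12.0 and 13.9 CPM in the Ager AHA/AHA lungs and 7.18, 7.92, 9.36 and 5.05 CPM in the Ager-/- lungs. Again all 4 Ager-/- libraries were below the other 7. The estimate was -0.89 on the log2 scale (SE 0.175, adjusted p = 0.0124).

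Wnt7a (chr6:91363981-91411363), an epithelial ligand on the same chromosome as Wnt2, moved the other way. Its CPM were 6.64, 6.14 and 6.15 in the WT lungs, 10.25, 6.94, 6.80 and 7.59 in the Ager AHA/AHA lungs, and 13.4, 10.8, 10.4 and 20.8 in the Ager-/- lungs. The Ager-/- libraries were all above the rest, by a small margin for the lowest, and replicate 5 was the highest. The estimate was 1.13 on the log2 scale (SE 0.233, adjusted p = 0.0161). The other 8 ligands tested were not called. Wnt3a, which activates beta-catenin signaling, was at 27.7 to 29.75 CPM in Ager-/- against 17.4 to 23.6 CPM in WT lung without overlap (log2 fold change 0.45, adjusted p = 0.0873), and Wnt5b was at 1.38 to 4.515 CPM against 4.83 to 6.53 CPM (log2 fold change -0.94, adjusted p = 0.111). Wnt2b, Wnt4, Wnt5a, Wnt7b, Wnt9a and Wnt11 had log2 fold changes between -0.23 and 0.01.

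**Figure D2:**
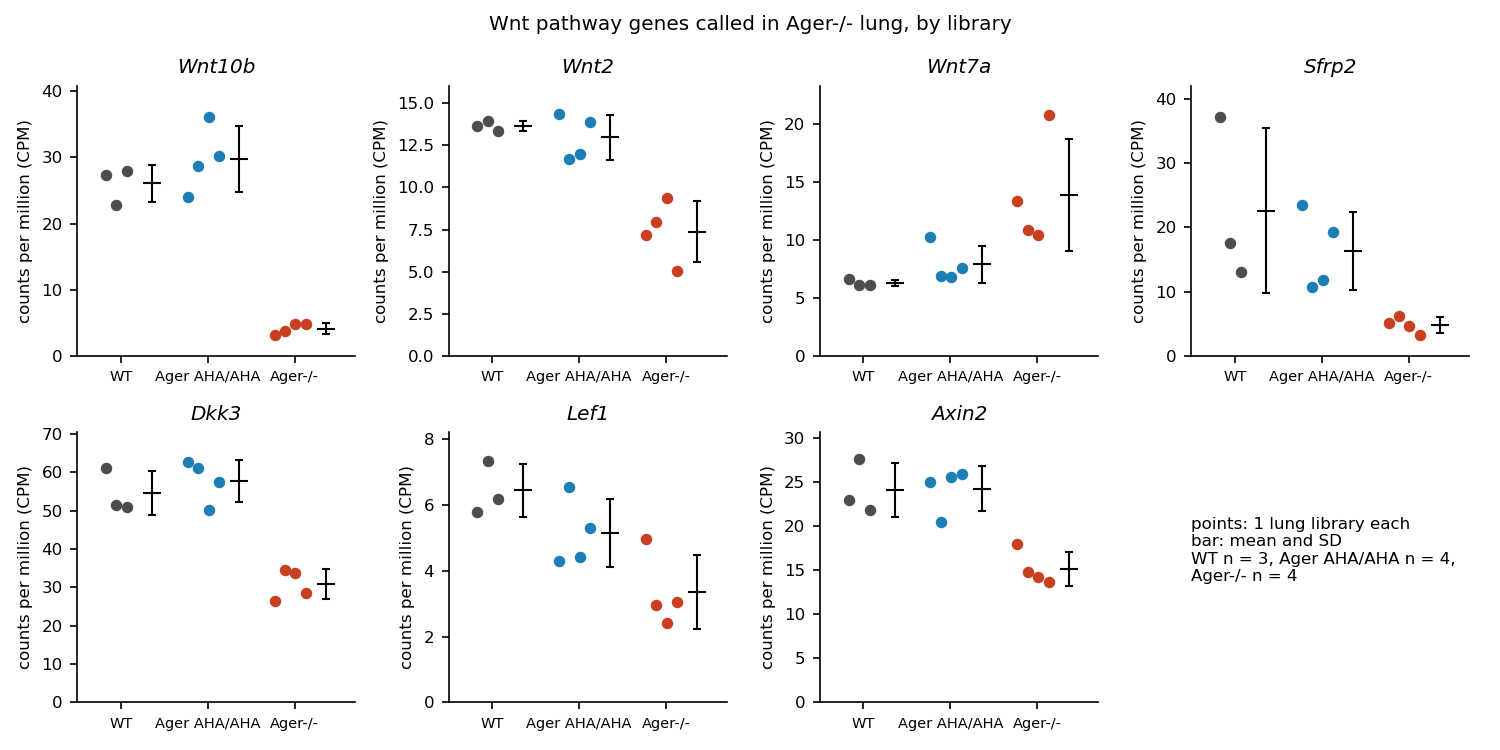
CPM of the 7 called genes in each lung library, by genotype (points), with the mean and SD of each genotype beside them (WT n = 3, Ager AHA/AHA n = 4, Ager-/- n = 4). For Wnt10b the Ager-/- libraries sit between 3.13 and 4.85 and the others between 22.8 and 36.1, and for Lef1 the Ager-/- and Ager AHA/AHA libraries overlap.

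Of the 50 genes, 31 matched an entry in the RefSeq promoter table of GRCm38.p6, and Dkk3 did not. The 250 bases before the start site are shown for the pair of genes with the largest decreases, Wnt10b and Sfrp2, and for Axin2 and Lef1, which are known beta-catenin targets, 5′ to 3′ on the gene's strand. Capitals mark each match to CTTTG, the core that Lef1 and Tcf proteins recognise, on the gene's strand or as CAAAG for the other strand.
Wnt10b, chr15:98778151-98778400, minus strand: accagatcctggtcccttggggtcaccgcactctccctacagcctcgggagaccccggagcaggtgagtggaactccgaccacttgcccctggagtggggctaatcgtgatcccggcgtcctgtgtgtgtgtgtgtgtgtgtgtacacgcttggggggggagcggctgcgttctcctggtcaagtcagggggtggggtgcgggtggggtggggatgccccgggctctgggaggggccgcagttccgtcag
Sfrp2, chr3:83766071-83766320, plus strand: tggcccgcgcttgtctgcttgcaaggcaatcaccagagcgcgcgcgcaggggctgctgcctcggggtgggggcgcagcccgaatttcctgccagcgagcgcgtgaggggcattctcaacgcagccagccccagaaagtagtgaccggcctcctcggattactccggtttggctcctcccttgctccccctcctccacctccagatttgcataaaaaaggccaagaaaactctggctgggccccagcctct
Axin2, chr11:108920099-108920348, plus strand: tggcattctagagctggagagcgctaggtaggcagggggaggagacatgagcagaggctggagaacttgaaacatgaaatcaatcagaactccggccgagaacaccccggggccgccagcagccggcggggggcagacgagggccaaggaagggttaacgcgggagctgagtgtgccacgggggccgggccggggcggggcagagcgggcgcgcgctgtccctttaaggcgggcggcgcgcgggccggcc
Lef1, chr3:131110073-131110322, plus strand: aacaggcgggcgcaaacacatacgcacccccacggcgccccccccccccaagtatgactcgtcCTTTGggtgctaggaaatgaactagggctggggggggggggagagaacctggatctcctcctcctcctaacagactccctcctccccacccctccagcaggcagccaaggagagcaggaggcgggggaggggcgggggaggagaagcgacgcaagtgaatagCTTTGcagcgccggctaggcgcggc
The core occurred in the windows of 1 of the 6 called genes with an entry (Lef1, 2 matches) and of 12 of the 31 genes, and 47.6% of all 20479 promoter windows hold it. The longer forms CTTTGAT and CTTTGAA, searched on both strands and each containing the core, were in 2.97% and 4.41% of all windows, in none of the 6 called genes, and in the Wnt11 window for CTTTGAT. These windows do not cover introns or distal elements, and a match is no evidence of binding.

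Sfrp2 (chr3:83766321-83774316), a soluble Frizzled-like protein made by fibroblasts that binds Wnt ligands, fell most among the secreted inhibitors. The WT lungs held 37.15, 17.6 and 13.0 CPM, the Ager AHA/AHA lungs 23.4, 10.8, 11.75 and 19.25 CPM, and the Ager-/- lungs 5.15, 6.18, 4.61 and 3.32 CPM. All Ager-/- libraries were below the others, and WT replicate 1, the library high in mesothelial genes, was highest. The estimate was -2.23 on the log2 scale (SE 0.390, adjusted p = 0.0123), and without WT replicate 1 it was -1.67 (adjusted p = 0.0244). Dkk3 (chr7:112116017-112159057), which unlike other Dickkopf proteins is not a classical Lrp5 and Lrp6 antagonist, had 61.2, 51.5 and 50.9 CPM in the WT lungs, 62.6, 61.0, 50.2 and 57.35 CPM in the Ager AHA/AHA lungs and 26.3, 34.55, 33.8 and 28.6 CPM in the Ager-/- lungs. The Ager-/- libraries were separate from the rest, at -0.82 on the log2 scale against WT (SE 0.117, adjusted p = 0.0012).

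Dkk2, an antagonist that binds Lrp5 and Lrp6, did not pass the edgeR test (adjusted p = 0.08), and passed with DESeq2 (adjusted p = 0.0224) and without the filter on low counts (adjusted p = 0.0326). The WT lungs had 13, 11 and 28 counts, the Ager AHA/AHA lungs 23, 30, 24 and 42, and the Ager-/- lungs 28, 33, 83 and 36. In CPM these are 0.543, 0.577 and 1.345, then 1.07, 1.42, 1.265 and 1.73, then 1.62, 1.69, 3.94 and 1.84. Ager-/- replicate 4 was far above the other Ager-/- libraries. The estimate for the Ager-/- group against WT was 1.47 on the log2 scale (SE 0.425). Sfrp1 and Wif1 had log2 fold changes of -0.14 and 0.24 and were not called.

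Axin2 (chr11:108920349-108950783), the scaffold protein used most often as a readout of beta-catenin signaling, had 23.0, 27.7 and 21.9 CPM in the WT lungs, 25.0, 20.5, 25.6 and 25.9 CPM in the Ager AHA/AHA lungs and 17.95, 14.8, 14.2 and 13.7 CPM in the Ager-/- lungs. The Ager-/- libraries were all below the rest, at -0.67 on the log2 scale against WT (SE 0.131, adjusted p = 0.0115). The other 4 feedback targets were not called, and Nkd1 alone had an estimate below 0. Znrf3, a ubiquitin ligase that removes Frizzled, had 12.15, 14.4 and 8.36 CPM in the WT lungs, 13.8, 14.5, 15.0 and 21.0 CPM in the Ager AHA/AHA lungs and 16.9, 15.0, 15.5 and 16.6 CPM in the Ager-/- lungs, at 0.46 on the log2 scale against WT (adjusted p = 0.207). Its relative Rnf43 was at 14.3, 17.5 and 14.6 CPM, 18.3, 14.5, 17.7 and 19.6 CPM, and 19.1, 16, 17.5 and 19.25 CPM in the same order. The lipase-like Notum, which removes the acyl group from Wnt, had 3.88, 7.35 and 6.25 CPM in the WT lungs, 6.07, 7.41, 5.74 and 5.07 CPM in the knock-in, and 7.70, 5.83, 6.225 and 6.74 CPM in the knockout. Nkd1, which binds Dishevelled, had 109.5, 117.3 and 113.4 CPM in the WT lungs, 129.1, 111.6, 133 and 167.8 CPM in the Ager AHA/AHA lungs and 95.5, 105.1, 118 and 93.8 CPM in the Ager-/- lungs. The groups of these 3 genes overlapped, with log2 fold changes against WT of 0.22, 0.19 and -0.14 for Rnf43, Notum and Nkd1.

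Lef1 (chr3:131110471-131224356), the DNA-binding partner of beta-catenin, is also prominent in T cells. The WT lungs held 5.80, 7.35 and 6.20 CPM, the Ager AHA/AHA lungs 4.31, 6.56, 4.43 and 5.32 CPM, and the Ager-/- lungs 4.98, 2.96, 2.42 and 3.06 CPM. The Ager-/- libraries were below all WT libraries and overlapped Ager AHA/AHA. The estimate was -0.95 on the log2 scale (SE 0.245) with an adjusted p of 0.0498, and the call was lost in 15 of 22 alternatives. A list of 10 T cell markers summed to 51.7 to 65.4 CPM in Ager-/- lung, 84.3 to 90.3 CPM in WT and 69.55 to 85.1 CPM in the knock-in, and 3 of the 10 were lower against WT (Cd3d, Lck and Cd3g). Their part in the Lef1 value was not tested. Tcf7l1 and Tcf7l2 were not called (log2 fold changes 0.33 and 0.26), and Tcf7l1 had 14.8, 16.79 and 12.6 CPM in the WT lungs, 16.2, 18.4, 17.8 and 16.9 CPM in the knock-in and 19.2, 15.3, 13.3 and 26.45 CPM in the knockout.

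None of the 10 receptors, 7 transducers, 2 secretion genes and 5 tested R-spondin system genes was called. Fzd4, the receptor of highest level, had 111, 117.9 and 91.2 CPM in the WT lungs, 99.8, 107.3, 124.8 and 134.1 CPM in the knock-in, and 76.65, 76.05, 103.2 and 84.95 CPM in the knockout, at -0.32 on the log2 scale against WT (adjusted p = 0.23) and with 1 Ager-/- library inside the WT range. Fzd7 was at a log2 fold change of -0.34 and Fzd5 at 0.53 (adjusted p = 0.132). The transducers had the highest median of the role groups, 0.27, from -0.06 for Dvl2 to 0.30 for Ctnnb1 and Dvl3. Ctnnb1 itself had 566.6, 650.9 and 538.4 CPM in the WT lungs, 648.2, 655.3, 600.9 and 725.9 CPM in the knock-in, and 605.8, 735.2, 758.6 and 784.1 CPM in the knockout. That is 0.30 on the log2 scale against WT (SE 0.119, adjusted p = 0.208). Wls had 219.1, 218.8 and 196.5 CPM in the WT lungs, 221.6, 197.3, 201.8 and 218.5 CPM in the knock-in, and 214.1, 255.4, 257.5 and 230.0 CPM in the knockout. Rspo1 had 69.2, 39.4 and 38.3 CPM in the WT lungs, 39.65, 33.75, 28.2 and 47.0 CPM in the knock-in, and 38.3, 40.3, 36.0 and 38.1 CPM in the knockout. The WT and Ager-/- libraries of Ctnnb1, Wls and Rspo1 overlapped, and those of Dvl3, Gsk3b, Apc and Fzd3 did not. These 4 were higher in every Ager-/- library, at log2 fold changes of 0.30, 0.28, 0.27 and 0.26 (adjusted p = 0.201, 0.218, 0.231 and 0.355). A p above the threshold does not show that levels are equal, since the interval of 2 SE reaches 0.54 for Ctnnb1.

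Leaving out WT replicate 1 or WT replicate 2 left 4 genes called. Wnt10b, Dkk3 and Sfrp2 were called in both, with Axin2 in the former and Wnt2 in the latter. Wnt7a lost its call without any 1 of the 3 WT libraries (adjusted p = 0.0556 to 0.0748), and Sfrp2 without Ager-/- replicate 5 (adjusted p = 0.0518). Within the set of 12 libraries alone (2 WT, 2 Ager AHA/AHA and 2 Ager-/- lungs), 3 genes were called, Wnt10b (log2 fold change -2.84, adjusted p = 2.56e-05), Dkk3 (-0.87, adjusted p = 0.0261) and Fzd4, and the other set held 1 WT lung library.

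**Figure D3:**
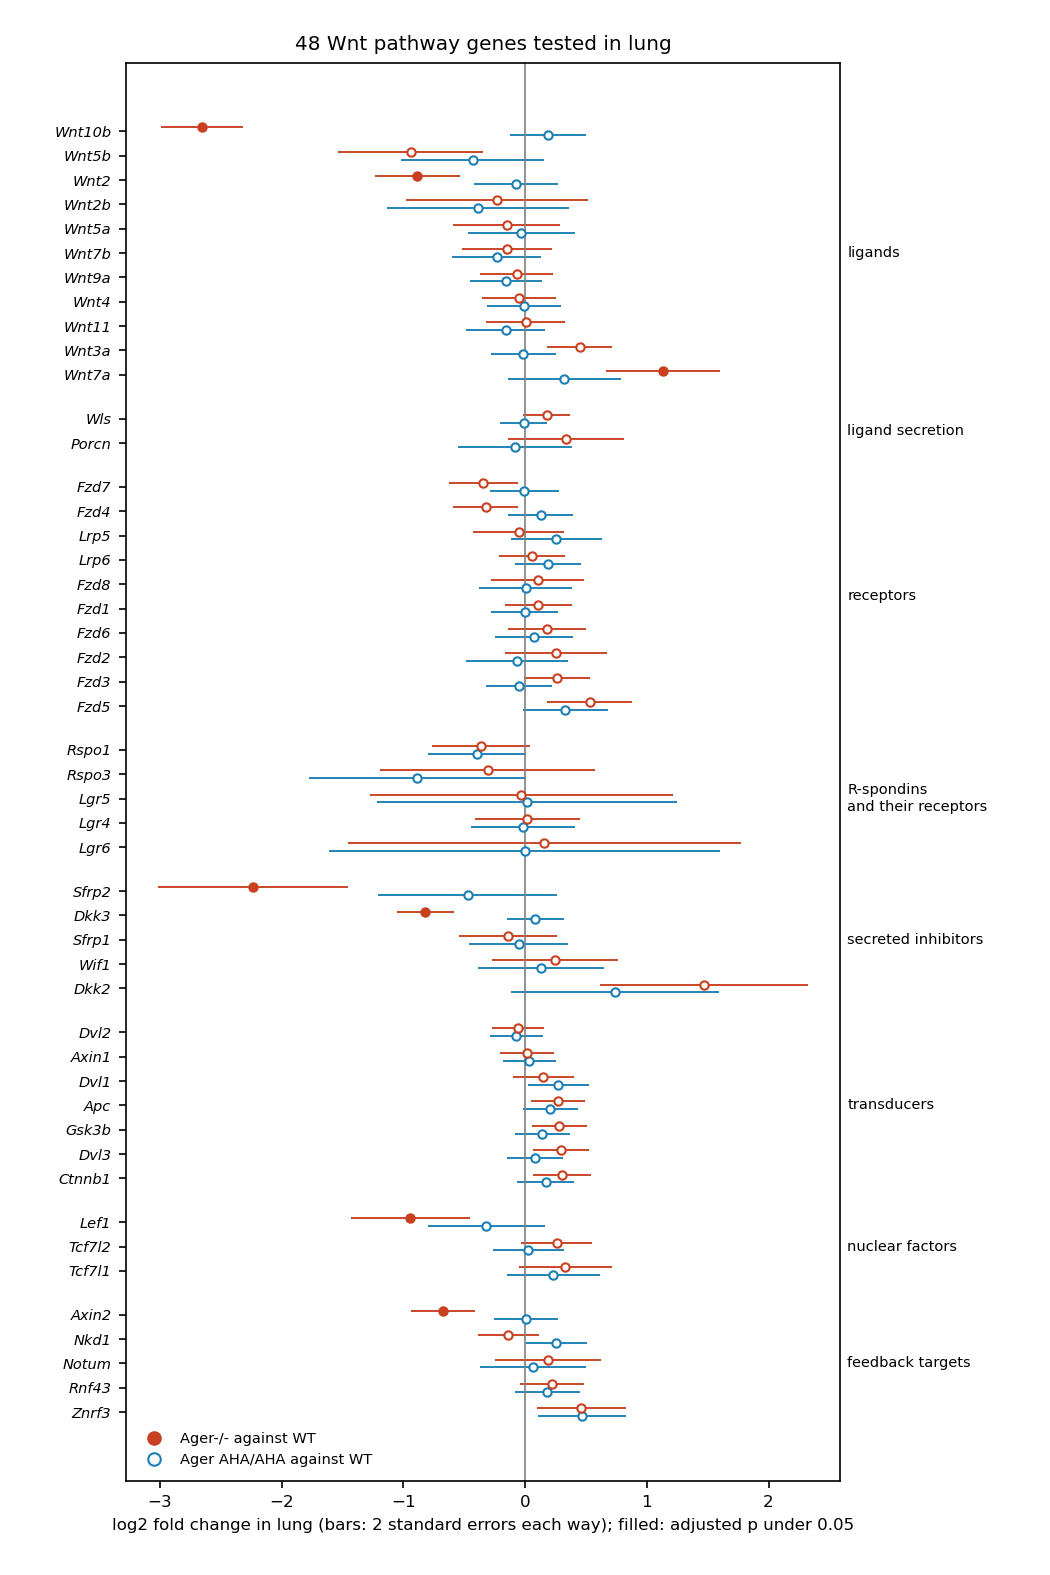
Log2 fold change in lung of the 48 tested genes, by role, for Ager-/- against WT (red) and Ager AHA/AHA against WT (blue), with bars of 2 SE each way and filled points for adjusted p under 0.05. The 7 filled points are all of Ager-/-, from Wnt10b at -2.65 to Wnt7a at 1.13.

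Some markers of lung cell types also differed between these libraries. A list of 10 fibroblast markers summed to 1624 to 2565 CPM in Ager-/- lung, below the 3425 to 4136 CPM of WT and the 2757 to 4071 CPM of Ager AHA/AHA. 3 of the 10 fell against WT, among them Tcf21, a transcription factor of lung fibroblasts, at 22.0 to 35.3 CPM in Ager-/- against 76.5 to 107.9 CPM in the other genotypes (log2 fold change against WT -1.60, adjusted p = 4.22e-05). The others were Mfap5 and Inmt. Inmt, at a mean of 1092 CPM in Ager-/- and 2381 CPM in WT, carried most of the difference in the sum. The rest of the list was not called, and Pdgfra overlapped, at 54.2 to 102.7 CPM in Ager-/- and 82.3 to 96.85 CPM in WT. A list of 10 pericyte and smooth muscle markers summed to 331.8 to 437.1 CPM in Ager-/- and 432.2 to 516.5 CPM in WT, and 2 of the 10 fell. A list of 10 alveolar type 1 markers summed to 7884 to 8994 CPM in Ager-/-, against 5800 to 6768 CPM in WT and 5571 to 7930 CPM in Ager AHA/AHA, and 3 of the 10 rose, including Aqp5, which lies within 1 Mb of Wnt10b. No marker of the 4 lists was at 0 in a lung group. The part of these lists in the Wnt gene values was not tested, and in bulk tissue fewer cells of a type and less RNA per cell cannot be told apart.

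**Figure D4:**
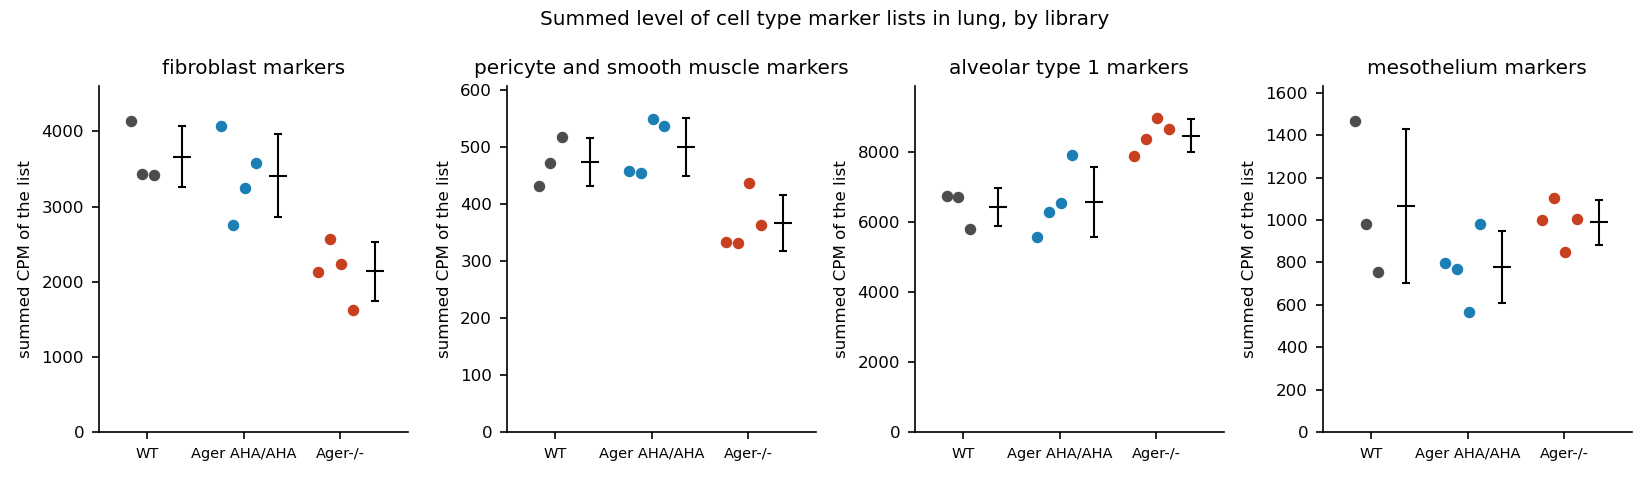
Summed CPM of marker lists in each lung library by genotype (points), with mean and SD (WT n = 3, Ager AHA/AHA n = 4, Ager-/- n = 4). Fibroblast sums are at most 2565 in Ager-/- and at least 2757 in the other genotypes, and WT replicate 1 is the highest mesothelium value at 1465. Inmt alone carries most of the difference in the fibroblast sum between Ager-/- and WT.

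Called genes were also counted near the members on the chromosome, since a mouse line can carry linked differences. Within 5 Mb of Lef1 9 of 54 tested genes were called in Ager-/- against WT lung, within 5 Mb of Dkk2 10 of 51, which include those 9 because Dkk2 and Lef1 are neighbours on chromosome 3, and within 5 Mb of Sfrp2 9 of 87. The share over all genes was 3.1%. Near Wnt10b it was 4 of 160, near Wnt7a 2 of 96, near Axin2 3 of 78, near Wnt2 1 of 30 and near Dkk3 5 of 73. Axin1, 8.46 Mb from Ager on chromosome 17, had a log2 fold change of 0.01. Linked differences between the lines were not tested.

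In Ager AHA/AHA against WT lung, the comparison for a RAGE altered in its heparan sulfate-binding site, no gene of the 48 was called with edgeR or DESeq2, where edgeR called 0.172% of all genes. At an unadjusted p under 0.05 there were 2 genes, both higher, Znrf3 (log2 fold change 0.47, SE 0.182) and Dvl1 (0.27, SE 0.126). They are 4.17% of the 48, where 4.63% of all genes passed, and both had an adjusted p of 0.947 with edgeR. The 7 genes called in Ager-/- were at log2 fold changes of 0.19 for Wnt10b (SE 0.156), -0.07 for Wnt2, 0.32 for Wnt7a (SE 0.232), -0.47 for Sfrp2 (SE 0.369), 0.08 for Dkk3 (SE 0.117), -0.32 for Lef1 (SE 0.240) and 0.01 for Axin2. Wnt7a was the 1 gene of 48 whose WT and Ager AHA/AHA libraries did not overlap, where 4.74% of all genes did not.

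Ager-/- was also compared with Ager AHA/AHA lung directly, which tests the difference between the mutants. 5 genes were lower and 1 was higher of 48 (12.5% in all), where 3.16% of all genes were called, 1.79% lower and 1.37% higher. Since the genes were chosen with earlier results known, this share is no independent evidence either. On the log2 scale Wnt10b was at -2.84 (SE 0.1625, adjusted p = 3.4e-08), Dkk3 at -0.91 (SE 0.110, adjusted p = 2.22e-04), Axin2 at -0.68 (SE 0.123, adjusted p = 0.00608), Wnt2 at -0.81 (SE 0.164, adjusted p = 0.0123) and Sfrp2 at -1.76 (SE 0.372, adjusted p = 0.0283). Wnt7a was at 0.81 (SE 0.210, adjusted p = 0.0488), and with the replicate number as a block its adjusted p was 0.102, while Fzd4 passed under the block (-0.49, adjusted p = 0.0433, against -0.45 and 0.064 without it). Lef1 at -0.62 was not called (adjusted p = 0.196). This comparison shares the Ager-/- libraries with the one against WT. 5 genes were below every WT and Ager AHA/AHA library in all 4 Ager-/- lungs, Wnt10b, Wnt2, Sfrp2, Dkk3 and Axin2, and 3 were above, Wnt7a, Wnt3a and Dvl3, where 3.01% and 2.45% of all genes were. The Wnt7a call ended in 15 of 22 alternatives, 8 of them without 1 library (any WT replicate, Ager AHA/AHA replicate 2, 3 or 4, or Ager-/- replicate 1 or 5, adjusted p = 0.06 to 0.167). That of Sfrp2 ended in 8, with 6 of them without 1 library (Ager AHA/AHA replicate 1 or 4 or any Ager-/- replicate, adjusted p = 0.0507 to 0.111). Without Ager-/- replicate 5, Wnt7a was at 0.55 (adjusted p = 0.167) and Sfrp2 at -1.62 (adjusted p = 0.111).

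Neutrophils held little RNA of most of the genes. 8 of the 50 had no count in the 9 neutrophil libraries (Wnt3a, Wnt7a, Wnt7b, Wnt9a, Wnt10a, Sfrp1, Wif1 and Rspo3), where 3 counts in a library correspond to 0.112 to 0.194 CPM, and 8 had 1 to 3 counts in all. 18 passed the filter, and 4 were at 10 CPM or more in every library: the receptor Fzd7 (49.4 to 96.7 CPM), Ctnnb1 (72.6 to 99.75 CPM), Gsk3b (17.9 to 26.3 CPM) and the Dishevelled protein Dvl1 (13.5 to 21.5 CPM). No ligand and no secreted inhibitor was tested in neutrophils. Of the genes called in lung, Wnt10b was at 0.103 to 0.433 CPM, Dkk3 at 0.0618 to 0.523 CPM, Axin2 at 0 to 0.981 CPM and Lef1 at 0 to 0.830 CPM, and Wnt2, Wnt7a and Sfrp2 had 1, 0 and 16 counts over all 9 libraries.

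No gene of the 18 was called in any neutrophil comparison with edgeR or DESeq2, where edgeR called 10.7% of all genes in Ager-/- against WT, 3.64% in Ager AHA/AHA against WT and 0.533% in Ager-/- against Ager AHA/AHA. At an unadjusted p under 0.05 there was 1 gene in the first comparison (30.5% of all genes), the co-receptor Lrp5. It had 0.194, 0.494 and 0.388 CPM in the WT neutrophils and 0.598, 0.956 and 1.39 CPM in the Ager-/- neutrophils, at 1.41 on the log2 scale (SE 0.498, adjusted p = 0.0715). In the second there were 4 (21.5% of all genes), Fzd5 and Lrp5 higher and Dvl2 and Fzd7 lower, with adjusted p of 0.123 to 0.208. Fzd5 had 10.4, 10.8 and 10.3 CPM in the WT neutrophils, 22.7, 11.3 and 17.5 CPM in the knock-in, and 6.84, 10.3 and 13.8 CPM in the knockout. In the third there were 3 (9.84% of all genes), Fzd5, Znrf3 and Dvl2. Ctnnb1 had 92.8, 84.4 and 99.75 CPM in the WT neutrophils, 86.6, 72.6 and 88.6 CPM in the knock-in, and 84.4, 88 and 91.4 CPM in the knockout, overlapping throughout.

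WT lung was set against WT neutrophils in 1 fit over 18180 genes, and the result depended on the scaling. Of the 48 genes in that fit, 30 did not pass the filter within neutrophils and entered through lung, where they are high, so they are left out of the counts. With TMM, 9 of the other 18 were higher in lung, 3 were lower and 6 were neither, where 83.4% of all genes were called (54.2% higher, 29.2% lower). With library totals alone, 17 were higher and 1 was lower, where 80% of all genes were higher and 13.3% lower, and the median over all genes moved by 2.48 on the log2 scale. The shares over all 18180 genes still include genes that did not pass the filter within neutrophils, so they are no like background for the 18. Fzd7, a receptor for canonical ligands, was the 1 gene lower in lung under both, at -3.13 with TMM (SE 0.1865, adjusted p = 3.05e-14) and -0.61 with totals (adjusted p = 9.35e-04). Fzd5 went from -1.20 to 1.31 and Gsk3b from -0.73 to 1.76, each called in both directions, so no direction is given for them. On the per-length scale Fzd7 was at 37.6 to 50.1 TPM in WT neutrophils against 17.2 to 22.2 TPM in WT lung. LPS, purification and site also differ between these samples and cannot be told apart from tissue.

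Among the genes that passed the filter within neutrophils, the effect of Ager-/- was called as different between the tissues for Lrp5 and Lef1. The lung effect minus the neutrophil effect was -1.53 and -3.20 on the log2 scale (adjusted p = 0.0414 and 0.0436). Lrp5 means were 62.5 CPM in WT lung and 60.25 CPM in Ager-/- lung. In WT, knock-in and knockout neutrophils Lrp5 had 3, 8 and 7, then 13, 21 and 17, then 16, 22 and 27 counts. Lef1 had 0, 1 and 4, then 1, 4 and 20, then 12, 19 and 1 counts. Both passed that filter through mutant libraries with higher counts, so no difference is read from them. Dkk3 and Wnt10b were also called, at -2.003 and -2.04 (adjusted p = 0.0224 and 0.0319). They did not pass that filter and entered through lung, where they are high, so no difference is read from them. The count of 4 genes of 48 includes them (8.33%, where 9.13% of all genes were called and 7.26% were lower). Each of the 4 rests on neutrophil libraries at 1.39 CPM or less, and none was called with the replicate number as a block. Without 1 library the count fell as low as 1 (WT neutrophil replicate 1 or 3, Ager-/- neutrophil replicate 1 or 4, or WT lung replicate 1). For Ager AHA/AHA 0 genes were called with edgeR and 1 with DESeq2 (4 at an unadjusted p under 0.05, where 16.7% of all genes passed), and 1.46% of all genes were called.

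Other genes of the pathway, 91 listed from ligands to planar cell polarity, gave 75 tested in lung. Against WT, Ager-/- lung had 1 higher and 2 lower, or 4%, close to the 3.1% of all genes. Daam2, a formin that binds Dishevelled, had 16.78, 20.3 and 18.8 CPM in the WT lungs, 20.9, 17.8, 23.2 and 31.1 CPM in the knock-in, and 31.4, 38.4, 48.1 and 41.25 CPM in the knockout. The estimate was 1.10 on the log2 scale (SE 0.179, adjusted p = 0.00415). The Dishevelled antagonist Dact3 fell (-0.90, adjusted p = 0.00887), and so did Apcdd1, a membrane-bound Wnt inhibitor (-0.74, adjusted p = 0.0329). The Apcdd1 call ended in 10 of 22 alternatives, among them leaving out any 1 of the WT libraries or Ager-/- replicate 1, 4 or 5 (adjusted p = 0.0536 to 0.131), and the Dact3 call ended without WT replicate 1 (adjusted p = 0.0528). Against Ager AHA/AHA, 6 were called, or 8%, where 3.16% of all genes were, the same 3 with Sox7 (-0.96), Nkd2 (-0.84) and Tnfrsf19 (-0.54), all lower except Daam2. This list too was chosen with earlier results known. With the replicate number as a block, Apcdd1 (-0.66, adjusted p = 0.0993) and Nkd2 (-0.66, adjusted p = 0.0666) were not called. Leaving out 1 library ended the calls of Apcdd1 (Ager AHA/AHA replicate 1, 3 or 4 or Ager-/- replicate 1, 4 or 5, adjusted p = 0.0527 to 0.0983), Tnfrsf19 (Ager AHA/AHA replicate 3 or 4 or Ager-/- replicate 1, 2 or 5, adjusted p = 0.0513 to 0.0866), Daam2 (Ager AHA/AHA replicate 1 or Ager-/- replicate 5, adjusted p = 0.0519 and 0.0523) and Nkd2 (Ager AHA/AHA replicate 3, adjusted p = 0.0543). In Ager AHA/AHA against WT lung 0 of 75 were called with edgeR, and 2 passed an unadjusted p under 0.05, or 2.67%, where 4.63% of all genes did.

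A list of 8 genes joins those of the study's lung term for positive regulation of canonical Wnt signaling with Wnt7a, which the study lists under epithelial cell proliferation. They were chosen on these libraries, so their counts are no independent evidence. In Ager-/- against WT 3 were higher (Daam2, Gprc5b and Wnt7a), 3 were lower (Wnt10b, Sfrp2 and Scel), and Dkk2 and Ror2 were not called. Gprc5b, an orphan receptor, had 34.3, 47.55 and 26.9 CPM in the WT lungs, 36.6, 38.7, 36.4 and 36.7 CPM in the knock-in, and 68.8, 87.0, 58.0 and 79.2 CPM in the knockout. The estimate was 1.02 on the log2 scale (SE 0.170, adjusted p = 0.0051). Scel, a protein of the cornified envelope, was at 66, 70.8 and 52.3 CPM, 47.3, 65.75, 52.96 and 84.6 CPM, and 21.1, 36.3, 32.7 and 25.5 CPM in the same order (-1.12, SE 0.214, adjusted p = 0.0154). Ror2, a receptor of Wnt5a, had 3.42, 2.20 and 2.55 CPM in the WT lungs, 2.74, 1.98, 2.27 and 2.56 CPM in the knock-in, and 1.33, 1.02, 1.76 and 0.4595 CPM in the knockout (-1.25, adjusted p = 0.0712, and 0.0159 with DESeq2). The Scel call ended without WT replicate 1 or 2 or Ager-/- replicate 5 (adjusted p = 0.0567 to 0.0719). All Ager-/- libraries lay beyond the WT range for each of these.

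In neutrophils, 47 of the 91 were tested, and 3 were called in Ager-/- against WT, or 6.38%, below the 10.7% of all genes. Fosl1, an AP-1 subunit, had 24.9, 19.2 and 30.1 CPM in the WT neutrophils, 20.8, 16.5 and 20.1 CPM in the knock-in, and 7.775, 7.65 and 9.10 CPM in the knockout. It was lower against WT (-1.60 on the log2 scale, SE 0.197, adjusted p = 9.64e-05) and also lower against Ager AHA/AHA (-1.23, adjusted p = 0.00244). The call against Ager AHA/AHA ended in 2 of 19 alternatives, both of them limma fits on TPM (adjusted p = 0.095 and 0.119). Jag1, a Notch ligand, was higher (1.40, adjusted p = 0.0155), as was Bcl9, which links beta-catenin to the transcription machinery (0.70, adjusted p = 0.0272). Bcl9 had 5.63, 7.66 and 7.05 CPM in the WT neutrophils, 10.3, 10.9 and 12.0 CPM in the knock-in, and 10.35, 11.5 and 11.3 CPM in the knockout, and the WT libraries were below all others. In Ager AHA/AHA against WT it was at 0.71 (adjusted p = 0.0442), a call that ended in 10 of 19 alternatives, 7 of them without 1 library (WT replicate 1 or 3, any Ager AHA/AHA replicate, or Ager-/- replicate 4 or 6, adjusted p = 0.0509 to 0.198). In Ager-/- against WT the Bcl9 call ended without WT replicate 1 or 3 or Ager-/- replicate 4 or 6 (adjusted p = 0.0538 to 0.109), and the Jag1 call without WT replicate 1 (adjusted p = 0.0835). A list of 10 macrophage markers summed to 331.9 to 392 CPM in the WT neutrophils, 353.7 to 375.4 CPM in the knock-in and 372.8 to 394.5 CPM in the knockout. Against WT, 4 of these were higher in Ager-/- (C1qa, C1qb, C1qc and Mertk, at 2.43, 2.38, 2.74 and 1.35 on the log2 scale) and 3 in Ager AHA/AHA (C1qa, C1qb and C1qc, at 1.87, 1.64 and 2.00), and Marco alone of the 10 was at 0, in the knockout. The 10 T cell markers summed to 21.9 to 31.7 CPM in the WT neutrophils, 34.8 to 70.0 CPM in the knock-in and 61.8 to 77.4 CPM in the knockout, with 6 of the 10 higher in Ager-/- and 2 in Ager AHA/AHA than in WT and none at 0. The part of both marker lists in these values was not tested.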

How the data were processed

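RNA-seq of lung and of air pouch neutrophils was read from 20 libraries grouped by the genotype and tissue labels. The authors made libraries with a NEBNext Ultra kit, sequenced read pairs, and used fastp, STAR and featureCounts on mm10. The deposited counts are whole reads per gene, not normalized. The deposited FPKM values, in which the authors scaled reads by gene length and library, were rescaled to a sum of 1000000 per library (TPM) and used for levels between genes and for limma alternatives. Counts with filterByExpr and TMM were fitted with edgeR 4.0.16 (robust quasi-likelihood, R 4.3.3), 1 fit of 3 genotypes per tissue and 1 of all 6 groups for contrasts between tissues, with Benjamini-Hochberg adjustment over all genes tested. A gene was called at adjusted p under 0.05. Depth (16764589 to 24818703 counts in lung) put 3 counts at 0.124 to 0.174 CPM in lung. DESeq2 1.42.0, limma 3.58.1, other filters and scalings, and leaving out each library were alternatives. The fit was tested on simulated data.

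The 50 genes and all lists were chosen with earlier results of these data known. Per-library values are given for members called in lung, the member of highest WT lung level in each role group, Axin2, Znrf3, Rnf43, Notum, Nkd1 and Lef1, the list of 8 from the study's enrichment, and neutrophil members called at 1 CPM or more, with up to 4 called genes per other list. Others named are examples chosen after their values were seen. Lung libraries of Ager AHA/AHA and Ager-/- with the same replicate number had correlations above 0 in all 3 pairs (0.147 to 0.246). Pairs with different numbers ran from -0.361 to 0.203, which overlaps, and the labels give no pairing. For that comparison the blocked value is given where it changes a call, without taking the numbers as an established pairing. Genes overlapping Axin2, Sfrp2 and Lef1 on the other strand held at most 6 counts per lung library.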

Additional observations from a re-analysis of the deposited data

Results flagged for a closer look

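In 58 groups of 4 lung libraries tested for a value far from the rest, 4 held one, and chance alone gives about 1 in 20 groups. Axin2 was at 20.5 CPM in Ager AHA/AHA replicate 2, against 25 to 25.9 CPM in the other 3. Znrf3 was at 21 CPM in Ager AHA/AHA replicate 4, against 13.8 to 15 CPM. Dkk2 was at 3.94 CPM in Ager-/- replicate 4, against 1.62 to 1.84 CPM. Gprc5b was at 38.7 CPM in Ager AHA/AHA replicate 2, against 36.4 to 36.7 CPM.

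The effect of Ager-/- against WT was called as different between lung and neutrophils, by the interaction term of the edgeR fit, for 8 of the genes described. Over all 18180 genes 9.13% were called. Some of the genes described were named because they were called in these data, so the count is no independent evidence. In log2 units, lung minus neutrophils, the difference was -4.19 for Gprc5b (adjusted p = 0.000998), 1.56 for Daam2 (adjusted p = 0.00228), -1.44 for Jag1 (adjusted p = 0.00965) and 1.21 for Fosl1 (adjusted p = 0.0169). It was -2 for Dkk3 (adjusted p = 0.0224), -2.04 for Wnt10b (adjusted p = 0.0319), -1.53 for Lrp5 (adjusted p = 0.0414) and -3.2 for Lef1 (adjusted p = 0.0436), and the last 4 rest on few neutrophil counts. Dkk3 and Wnt10b did not pass the filter within neutrophils and entered the fit through lung, so no difference is read from them. Lrp5 and Lef1 passed it through mutant libraries with higher counts, and no difference is read from these either. Gprc5b had 1, 5 and 0 counts in the WT neutrophils, 0, 5 and 2 in the knock-in and 103, 54 and 133 in the Ager-/- neutrophils. Within neutrophils it passed the filter only through the knockout, where it is high, so no difference between tissues is read from it.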

How the results depend on the processing

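In Ager-/- against WT lung, Wnt10b and Dkk3 kept their calls in 22 of 22 alternatives, Sfrp2 in 20, Wnt2 and Wnt7a in 18, Axin2 in 17 and Lef1 in 7. The count of 7 became 3 with a log2 fold change beyond 1 (Wnt10b, Sfrp2 and Wnt7a), 3 in the FPKM set of 12 libraries alone, an alternative chosen after seeing the data, 10 with DESeq2, 5 with the replicate block, and 4 to 8 without 1 library. Against Ager AHA/AHA, the count of 6 became 2 with the fold threshold, 2 in that set and 9 with DESeq2. Without the filter on low counts, Ager AHA/AHA against WT neutrophils gave 1 (Fzd5). For the difference between tissues, Ager AHA/AHA gave 1 (Sfrp2) with DESeq2 and 1 without the filter, and Ager-/- gave 2 with RLE scaling, 0 with the replicate block and 1 to 4 without 1 library. Sfrp2, like Dkk3 and Wnt10b, did not pass the filter within neutrophils. With library totals in place of TMM, chosen after seeing the data, WT lung against WT neutrophils turned from -0.76 to 1.75 for Bcl9 and from -0.89 to 1.61 for Daam2. The cause of these changes was not tested. Outside Ager AHA/AHA against Ager-/- lung, same-numbered libraries gave correlations of -0.265 to 0.214 and are not taken as pairs. With the replicate block in these, Axin2, Lef1 and Apcdd1 in Ager-/- against WT lung (adjusted p = 0.0585, 0.152 and 0.122), Gprc5b, Jag1 and Bcl9 in Ager-/- against WT neutrophils (0.106, 0.192 and 0.324) and Bcl9 in Ager AHA/AHA against WT neutrophils (0.538) were not called. Few counts limit Dkk2, Lgr5 and Rspo3 in lung and most of the genes in neutrophils.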
